A study of Mus musculus with 36 samples.

Results

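The synaptic vesicle and release genes described here are 38 mouse genes, chosen by name, that encode proteins of the vesicle membrane, the fusion machinery and the active zone. They were read in RNA-seq libraries of sorted brain cells, where 25468 genes had at least 1 transcript and 13578 were tested. All 38 were found, and 37 passed the filter of at least 1 FPKM in 2 libraries. FPKM, the deposited unit, scales fragments by transcript length and by the fragments mapped in a library. The study profiled 6 cell populations, Neg and those lettered A to E, in C57/Bl6 mouse brain. Each was taken from olfactory bulb, cortex and brainstem, and each of the 18 groups holds 2 libraries, 36 in all. Every group carries the label astrocyte as its cell type, and the labels give no age, no transgene, no treatment and no account of what Neg means. The series text speaks of cell lines, whereas the sample labels give brain as the tissue.

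Release of transmitter starts when a vesicle docks at the active zone. There Rab3 and the RIM and Munc13 proteins tether and prime it, the SNARE proteins synaptobrevin, syntaxin and SNAP-25 pull the membranes together, and synaptotagmins trigger fusion when calcium enters. Synapsins hold vesicles in reserve, and complexins clamp and then assist the SNARE complex. Neurons are the classical site of this machinery, while several relatives, such as Vamp3 and Vamp4, serve membrane traffic in many cell types. In the adult olfactory bulb, newly born interneurons keep arriving, so that immature neurons are found there.

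Libraries differed in depth and in cell markers. Relative depth, read from coverage divided by FPKM, was 0.0695 in brainstem E replicate 1 and 0.315 in olfactory bulb E replicate 1, and 1.16 to 4.08 in the others. Near 10 FPKM, the half-width of the deposited interval was 63.0% and 34.2% of the value in those 2 libraries and 10.1% to 16.6% elsewhere. Of 18 astrocyte markers, 18 reached 1 FPKM in every A and C library, and 7 to 18 did in Neg libraries. Neuron markers were present throughout, with 7 to 18 of 19 at 1 FPKM or more in each library. In bulk RNA, fewer cells of a type and less RNA per cell cannot be told apart. Brainstem D replicate 2 and cortex E replicate 2 went against their region labels. Their mean log2(FPKM + 1) over 6 neuroblast markers was 2.09 and 2.07, within the olfactory bulb range of 1.37 to 3.05, whereas the other 22 cortex and brainstem libraries reached at most 1.33. They are called the libraries labelled brainstem D replicate 2 and cortex E replicate 2, and the values that rest on them are also given without them. The labels do not tie the libraries of a group to different animals, and p-values therefore measure only how much these libraries vary, a spread that may be technical.

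The members were detected in all populations. At 1 FPKM or more, a median of 25 of the 38 was found in Neg libraries, 28 in A, 26.5 in B, 29 in C, 27.5 in D and 20 in E, and single libraries held 13 to 33. Over all genes, 2107 to 7470 reached this level in Neg libraries, 4284 to 9382 in A and 5909 to 10363 in B. The ranges were 8712 to 9984 in C, 3002 to 8697 in D and 3007 to 6784 in E. Whether the member counts depart from those of all genes was not tested. FPKM is per length, so levels of different genes can be set side by side, but only roughly. They are sums over deposited transcripts, some of which cover only part of a gene. Those of Rims1 are 7 transcripts of 825 to 2189 bases, some in separate parts of the gene. A Syt2 transcript of 526 bases reached 9.16 FPKM. Snap25, the SNARE of the plasma membrane, had the highest median level, 119 FPKM (lowest 23.4, highest 413, 36 libraries). Vamp2, the main synaptobrevin of neurons, followed at 53.9 (2.16 to 121), and then Syn1, a synapsin, at 20.2 (0 to 49.2). Syt11, a synaptotagmin that does not bind calcium, had a median of 17.0 (1.42 to 60.5) and Rph3a, the Rab3 effector rabphilin, one of 14.5 (0.29 to 67.6). At the other end, Rab3d stayed below 1 FPKM in all libraries and was not tested. Rims4, a short RIM, was listed at 0 in 31 libraries and passed the filter only because of 1.88 FPKM in cortex D replicate 1 and 2.72 FPKM in cortex E replicate 2. Snap25 and Vamp2 were therefore high in nearly every library, and members such as Syt2, Syn3 and Rims4 were listed at 0 in most.

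**Figure D1:**
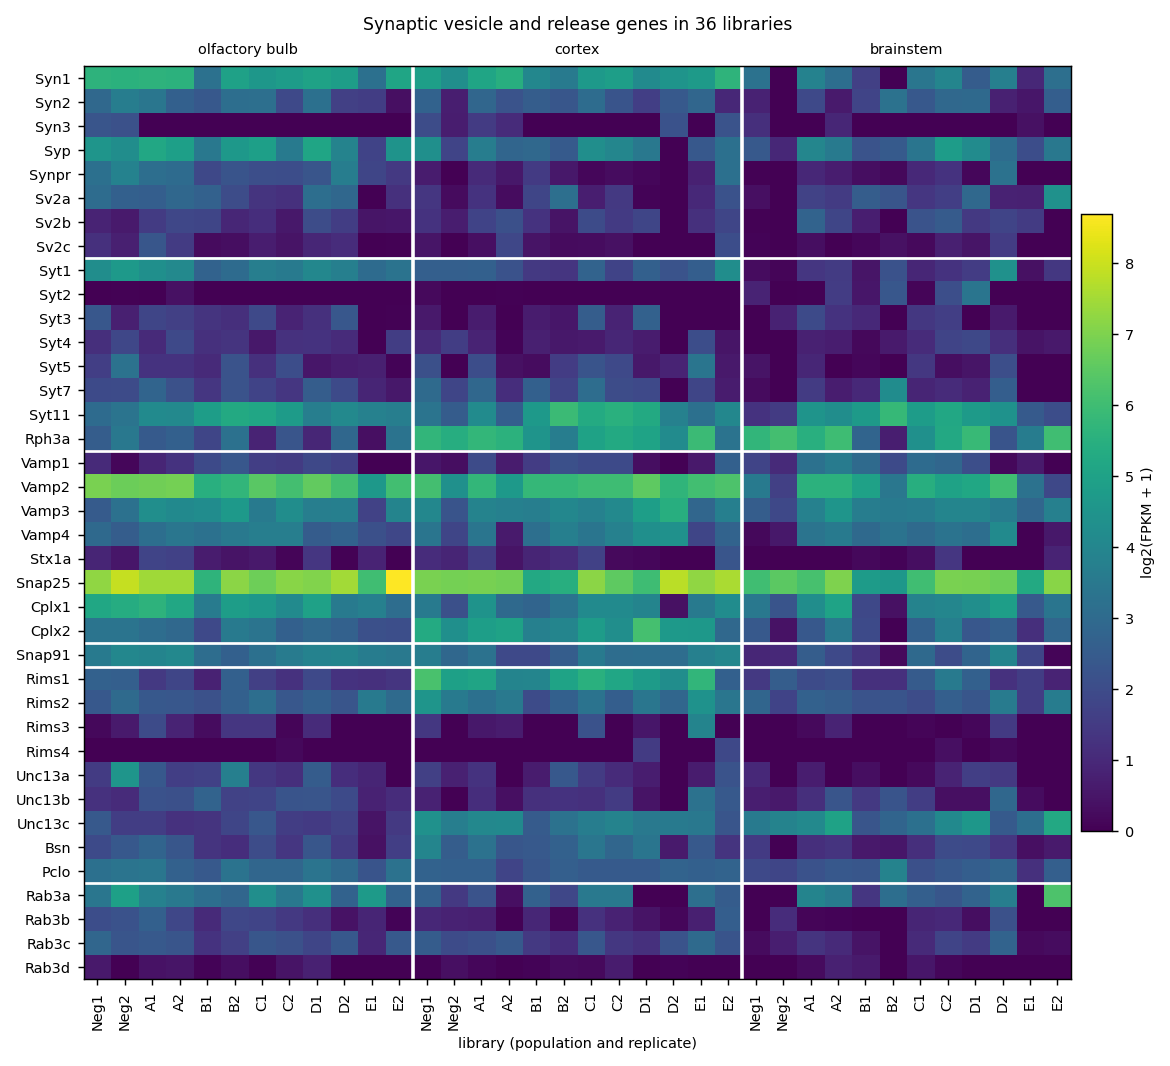
Level of each member, as log2(FPKM + 1) in colour, in every library; rows are grouped by role with white lines between roles, columns by region and then population with the replicate number. Snap25 (23.4 to 413 FPKM) and Vamp2 (2.16 to 121 FPKM) form the bright rows, and Rims1 is bright in most cortex columns.

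To separate members that followed neuronal RNA from members also found where astrocyte RNA was abundant, each gene was fitted on 2 marker means at once. These were the mean log2(FPKM + 1) of 19 neuron markers and of 18 astrocyte markers in the 36 libraries. The fit had no term for region, population or group, so differences between these also enter the slopes and their p-values. The slope of a gene is its change in log2(FPKM + 1) per unit of a marker mean at an equal value of the other. The neuron slope was above 0 in 16 of the 37 tested members (43.2%) and below 0 in 0. Over all genes tested, 8.63% had a called slope above 0 and 0.398% one below 0, with an all-gene median of 0.20 beside 0.61 for the members. Of 6 neuroblast markers 5 also had a called neuron slope above 0, with a median of 1.16 beside 0.99 for the neuron markers. The part of neuroblast RNA in the members' slopes was not tested. By role, 5 of 8 vesicle membrane proteins and synapsins, 3 of 8 in the group of synaptotagmins and rabphilin, 3 of 8 SNAREs and complexins, 2 of 9 active zone proteins and 2 of 3 tested Rab3 genes had a called neuron slope, as did the endocytic adaptor Snap91.

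Syn1 had the steepest neuron slope, 1.90 ± 0.32 (SE, adjusted p = 0.00018). Next came Cplx1, a complexin, at 1.63 ± 0.26 (adjusted p = 0.000122), and Vamp2 at 1.48 ± 0.26 (adjusted p = 0.000282). Snap91, which brings clathrin to vesicle membrane for retrieval, was at 1.40 ± 0.25, Syp, the vesicle protein synaptophysin, at 1.39 ± 0.25, and Syt1, the fast calcium sensor of release, at 1.32 ± 0.33, with adjusted p of 0.000467, 0.000494 and 0.0096. The other called slopes, from 0.58 to 1.28, belonged to Synpr, Rab3c, Bsn, Unc13a, Snap25, Syt5, Rab3b, Sv2b, Syt4 and Sv2c. With the single highest transcript of each gene in place of the sum, 7 neuron slopes were called, and those of Syn1, Snap91 and Snap25 were among the lost ones (adjusted p = 0.0721, 0.309 and 0.724). The slope of Syt1 was not called after rescaling, after quantile normalization or with medians of the marker lists (adjusted p = 0.0874, 0.325 and 0.0576). Leaving out the 2 libraries against their labels gave 17 called neuron slopes, with Stx1a added.

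The astrocyte slope was above 0 in 4 members, which were Syt11, Vamp4, Vamp1 and Vamp3. Over all genes 55% were called above 0 and 0.39% below, so the members' share of 10.8% lay under that of all genes. Syt11 had a slope of 0.73 ± 0.08 (adjusted p = 3.44e-09) and Vamp4, a SNARE of the trans-Golgi network, one of 0.45 ± 0.11 (adjusted p = 0.000783). Vamp1, a synaptobrevin, was at 0.37 ± 0.12 (adjusted p = 0.00781) and Vamp3, the widely expressed cellubrevin, at 0.28 ± 0.09 (adjusted p = 0.0105). None of these 4 had a called neuron slope. Below 0 were Snap25 (-0.35 ± 0.10, adjusted p = 0.00271), Syn3 (-0.35 ± 0.09, adjusted p = 0.00093) and Rab3c (-0.19 ± 0.08, adjusted p = 0.0475), the last lost in 24 of the 36 fits that left out 1 library and without the 2 libraries against their labels. The scaling of the libraries decided part of this. FPKM summed over nuclear transcripts was 24130 to 63081 in Neg libraries, 37453 to 119524 in A and 109895 to 139691 in B. It was 87398 to 163132 in C, 41324 to 148661 in D and 23005 to 70447 in E. After rescaling each library to a sum of 1000000, 2 members (Sv2b and Syt11) were above 0 and 6 below. After quantile normalization 0 were above and 7 below, and the shares of all genes under either scaling are not reported here. Snap25 and Syn3 stayed below 0 in both, while the slope of Vamp3 turned to -0.19 and -0.06 and that of Vamp1 to -0.0028 after quantile normalization. Markers of other glia moved with the astrocyte mean too, since 7 of 7 microglia and 4 of 7 oligodendrocyte markers had a called astrocyte slope above 0. Their part in the members' slopes was not tested.

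**Figure D2:**
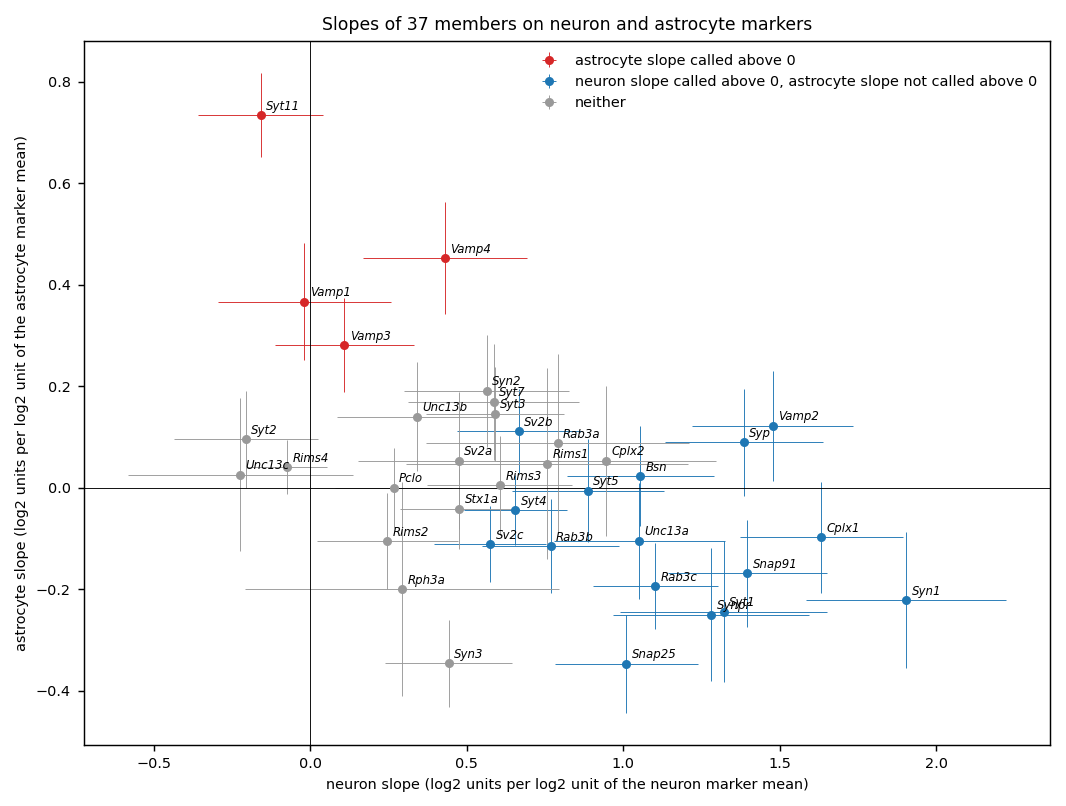
Slope of 37 members on the neuron marker mean (horizontal axis) against the slope on the astrocyte marker mean (vertical axis), both in log2 units per log2 unit from 1 fit over 36 libraries; bars are standard errors. Syt11 (0.73), Vamp4 (0.45), Vamp1 (0.37) and Vamp3 (0.28) lie highest, and Syn1 (1.90) lies farthest to the right.

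The promoter window of Syn1, the member with the steepest neuron slope, is printed to show its sequence. It runs from 250 bases before to 50 after a gene start in RefSeq (GRCm38.p6), chrX:20920869-20921168 (minus strand), and is written 5′ to 3′ on the gene's strand with motif matches in capitals. The letters searched, on both strands, were TTCAGCACC and GGACAGCG, the left and right parts of the site of the neuronal repressor REST, and TGACGTCA, the cyclic AMP response element.
Syn1: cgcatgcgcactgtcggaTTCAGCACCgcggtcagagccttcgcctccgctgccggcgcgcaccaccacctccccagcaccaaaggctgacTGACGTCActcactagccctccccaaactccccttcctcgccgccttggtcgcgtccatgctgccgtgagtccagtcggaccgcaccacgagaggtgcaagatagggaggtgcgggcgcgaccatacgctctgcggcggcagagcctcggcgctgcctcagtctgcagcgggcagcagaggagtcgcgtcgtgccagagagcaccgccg
The Syn1 window holds TTCAGCACC and TGACGTCA. Of 29 members with a window (40 windows), Syn1 and Unc13a held TTCAGCACC, Unc13a held GGACAGCG and Syn1 held TGACGTCA. Of all 32851 windows of this length, 0.371%, 1.26% and 1.79% held these letters. A match describes the sequence and is not a measured site.

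Between A to E and Neg, few members differed. Higher in A to E were 4 of 37 members, Syt11, Vamp3, Vamp4 and Sv2b, and lower was 1, Syn3. Over all genes 20.2% were higher and 0.14% lower, and the median difference was 0.50 over all genes and 0.07 over the members. Of 18 astrocyte markers 18 were higher and of 19 neuron markers 1 was, while of 7 microglia markers 1 was higher and of 7 oligodendrocyte markers 1 was higher and 1 lower. Their part in the members' differences was not tested. With the 2 libraries against their labels left out 4 members were again higher, with Vamp1 called and Sv2b not, and Syn3 was lower.

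Syt11 (chromosome 3, 88744700 to 88775164) was at 1.42, 6.00 and 9.18 FPKM (lowest, median and highest of 6) in Neg. It was at 5.05, 17.0 and 21.5 in A, 24.8, 32.8 and 60.5 in B, 26.4, 35.6 and 44.4 in C, 12.1, 18.2 and 37.6 in D, and 3.13, 10.2 and 15.3 in E. Thus 26 of the 30 lettered libraries lay above all Neg libraries. B and C had the highest medians, and B, C and D each lay without overlap with Neg. The difference was 1.87 ± 0.31 (SE, log2 scale, adjusted p = 0.000249), and its adjusted p after rescaling was 0.0805.

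Vamp3 (chromosome 4, 151047300 to 151057963) was at 2.65, 4.80 and 15.4 FPKM in Neg and at 2.27, 13.1 and 42.7 in the 30 libraries of A to E. Vamp4 (chromosome 1, 162570515 to 162599084) was at 0.139, 3.74 and 9.50 in Neg and 0, 8.71 and 19.8 in A to E. Both groups overlapped for either gene, since cortex Neg replicate 1 reached 15.4 and 9.50. Differences were 1.12 ± 0.32 for Vamp3 (adjusted p = 0.0166) and 1.04 ± 0.32 for Vamp4 (adjusted p = 0.0235). Neither was called after rescaling or quantile normalization, Vamp3 not with a term for the library number series, and Vamp4 not with the single highest transcript. Vamp3 was also not called without olfactory bulb Neg replicate 1, cortex Neg replicate 2 or brainstem Neg replicate 2, and Vamp4 not without any of 5 of the 6 Neg libraries, the exception being cortex Neg replicate 1. Vamp2 in the same comparison differed by 0.62 ± 0.34 (adjusted p = 0.17) and Vamp1 by 0.79 ± 0.30 (adjusted p = 0.0608). Vamp1 overlaps Cd27 and Tapbpl on the other strand and Vamp3 lies in Camta1, and the cDNA chemistry does not mark strand, so reads of overlapping genes cannot be told apart. The same limit holds for other members. Among them Syn1 overlaps Araf and Timp1, Unc13a Colgalt1, Rab3a Mpv17l2 and Syt2 Ppp1r12b, all on the other strand.

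Syn3 (chromosome 10, 86055125 to 86498896), the synapsin of low abundance in the adult brain, was the member with lower values. In Neg it was at 0.0232, 2.13 and 3.87 FPKM, and in 24 of the 30 lettered libraries it was listed at 0, among them all 12 of B and C. The other 6 lay between 0.319 and 3.63 FPKM, so those libraries overlapped with Neg. The difference was -1.11 ± 0.26 (adjusted p = 0.00487), and it was called in all 11 alternatives and with any 1 of the 36 libraries left out. Timp3 lies within the Syn3 locus on the other strand. Among the paralogs, Syn1 differed by 0.07 ± 0.40 (adjusted p = 0.897) and Syn2 by 0.40 ± 0.39 (adjusted p = 0.432). Sv2b, a vesicle glycoprotein, was at 0, 0.591 and 1.39 FPKM in Neg and 0, 1.87 and 5.89 in A to E, a difference of 0.79 ± 0.28 (adjusted p = 0.0452) that was lost in 6 of 11 alternatives and in 18 of the 36 fits that left out 1 library.

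Each lettered population was also set against the other 4. In A, C and D, 0 members were called by limma in either direction, with 5, 3 and 4 members at an unadjusted p under 0.05. Over all genes, 0% were higher and 0% lower in A, 7.51% and 0.00736% in C, and 0.0295% and 0.0736% in D.

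Several release genes with a neuron slope above 0 were lower in population B. Lower in B were 5 of 37 members (13.5%), against 0.361% of all genes. They were Snap25, Syn1, Cplx1, Snap91 and Rab3c, a Rab3 GTPase. Higher was 1, Syt11, against 15.4% of all genes. Microglia markers were higher in B in 7 of 7, with a median difference of 3.72 and a summed level of 292 to 826 FPKM, against 31.3 to 114 in A, 47.0 to 332 in C, 2.37 to 107 in D and 4.17 to 40.2 in E. Astrocyte markers were higher in 6 of 18 (median 0.98), and oligodendrocyte markers higher in 3 of 7 and lower in 1. Neuron markers were lower in 2 of 19, with a median difference of -0.55 beside -0.26 over the members. The part of any of these in the members' differences was not tested. Again 5 members were lower without the 2 libraries against their labels, with Rph3a called and Cplx1 not.

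Snap25 in B was at 49.2 and 144 FPKM in the olfactory bulb, 37.4 and 42.9 in the cortex, and 26.5 and 23.4 in the brainstem. Medians were 124 in A, 115 in C, 126 in D and 145 in E, with lowest values of 70.8, 64.8, 63.4 and 37.8. In cortex and brainstem both B libraries lay below every other library of their region, and olfactory bulb B replicate 2 lay among the others. The difference was -1.45 ± 0.36 (adjusted p = 0.00611), lost without olfactory bulb B replicate 1. Syn1 (difference -1.37 ± 0.41, adjusted p = 0.0205) was at 0, 9.65 and 30.2 FPKM in B, where A had a median of 38.2, C of 24.1, D of 19.4 and E of 17.1. Snap91 (-1.11 ± 0.31, adjusted p = 0.0133) was at 0.152, 3.82 and 7.72 FPKM in B and had medians of 6.87, 7.93, 10.6 and 11.0 in A, C, D and E. B overlapped with the other populations for both genes. Syn1 was lost without olfactory bulb B replicate 1, cortex B replicate 2 or brainstem B replicate 2, and Snap91 without olfactory bulb B replicate 2, cortex B replicate 1 or brainstem B replicate 2. Cplx1 (-1.15 ± 0.40, adjusted p = 0.0476) and Rab3c (-0.83 ± 0.28, adjusted p = 0.0445) were lost in 23 and 24 of the 36 fits that left out 1 library.

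Syt11 was higher in B by 1.06 ± 0.31 (adjusted p = 0.0208). This call was lost without olfactory bulb, cortex or brainstem B replicate 2, under both rescaling and quantile normalization, with the single highest transcript and with a term for the library number series. With that term Snap91 alone was called lower and Snap25 had an adjusted p of 0.0793, whereas with the single highest transcript Snap25 alone was. The titles number the libraries in 2 ranges, which are not stated to be a batch. The later range holds all D and E libraries, no Neg library and 1 of the 6 B libraries, so series and population are partly confounded.

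Values against Neg came from the same fit, and the 5 comparisons share the 6 Neg libraries. In A, 2 members were higher (3.04% of all genes) and 0 lower (0% of all genes), with 8 members at an unadjusted p under 0.05 in either direction by limma. In B, 5 were higher (41.7%) and 3 lower (0.508%), the lower ones being Rph3a by -2.04 ± 0.62, Snap25 by -1.43 ± 0.45 and Syn3 by -1.39 ± 0.33, with adjusted p of 0.0107, 0.0141 and 0.0021. In C, 5 were higher (40.5%) and 1, Syn3, was lower (0.133%). In D, 3 were higher (3.96%) and 0 lower (0.0147%), and 1, Syt11, was higher without the 2 libraries against their labels. In E, 0 were called in either direction (0% and 0% of all genes), with 3 members at an unadjusted p under 0.05. Syt11 differed from Neg by 1.46 ± 0.40 in A, 2.71 ± 0.40 in B, 2.62 ± 0.40 in C and 1.83 ± 0.40 in D, each called (adjusted p = 0.0404, 1.72e-05, 4.19e-05 and 0.0111). The call of Syt11 in A was lost after rescaling, quantile normalization, centring on neuron markers and with the single highest transcript, and in 16 of the 36 fits that left out 1 library. In D it was lost without cortex Neg replicate 2, after rescaling, after quantile normalization and with the term for the number series, and in C after rescaling. The balance of these counts turned with the scale. After rescaling B had 1 higher and 11 lower members and C 0 and 6. After quantile normalization B had 1 and 17, C 1 and 12 and D 0 and 3. Shares of all genes under these scalings are not reported here, so these counts are not read as results about the members. Microglia markers were higher than in Neg in 7 of 7 in B and 4 of 7 in C, and astrocyte markers in 17 and 18 of 18; their part was not tested. Unc13b, a Munc13 priming factor, was higher than Neg in B by 1.03 ± 0.39 (adjusted p = 0.0353), a call lost in 9 of the 36 fits that left out 1 library and of the opposite sign after quantile normalization (-0.191), and its paralogs Unc13a and Unc13c were not called there. Snap25 in B was not called against Neg without olfactory bulb B replicate 1. Vamp3 turned negative in B and C after rescaling and quantile normalization.

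In population E, 7 of 37 members (18.9%) were lower than in the other 4, against 42.5% of all genes, and 0 were higher, against 0.103%. The median difference was -0.66 over all genes and -0.25 over the members. Vamp4 was at 0, 2.54 and 5.82 FPKM in E, and its medians in A, B, C and D were 9.26, 8.78, 10.8 and 12.4. The difference was -1.80 ± 0.33 (adjusted p = 0.000284), and E overlapped with A and D. Syt11 differed by -1.45 ± 0.31 (adjusted p = 0.00123), Syt7, a slow calcium sensor, by -1.21 ± 0.38 (adjusted p = 0.0145), Vamp1 by -1.18 ± 0.31 (adjusted p = 0.00474) and Syt3, another synaptotagmin, by -1.16 ± 0.32 (adjusted p = 0.00652). Vamp2 differed by -1.04 ± 0.35 (adjusted p = 0.0197) and Vamp3 by -0.89 ± 0.33 (adjusted p = 0.0302). Microglia markers were lower in E in 7 of 7 (median -2.38) and astrocyte markers in 15 of 18 (median -1.69). Neuron markers were lower in 6 of 19 (median -0.58) and oligodendrocyte markers in 2 of 7 (median -0.69). The part of these markers in the members' differences was not tested. Syt7 was not called without the library labelled cortex E replicate 2, Vamp2 not without olfactory bulb E replicate 1, cortex E replicate 1 or brainstem E replicate 2, and Vamp3 not without olfactory bulb, cortex or brainstem E replicate 1. Both shallowest libraries belong to E, and without them Vamp4, Syt11 and Vamp1 were called lower and Rab3a and Snap25 higher. Olfactory bulb E and brainstem E were then left with 1 library each, replicate 2. These libraries held the highest values of the 2 genes in the series, Snap25 at 413 FPKM in the bulb and Rab3a at 75.2 FPKM in the brainstem. Without the 2 libraries against their labels, Sv2c was called lower, Syt7 was not, and Rims3 was called higher. Cortex E was then left with 1 library, replicate 1, in which Rims3 was at 14.2 FPKM. Rims3 was listed at 0 in every other E library, so this call is not read as a difference of E. The calls depended on the scale. After quantile normalization, which moved the all-gene median to 0.06, 0 members were lower and 4 were higher, Rims2, Snap25, Snap91 and Rims4. Among E libraries, Rims4 was above 0 only in the one labelled cortex E replicate 2, at 2.72 FPKM. Its call is therefore not read as a difference of E. After rescaling 4 members were lower and 2 higher, Vamp2 turned to 0.06 and Vamp3 to 0.18. How many of all genes were called under these scalings is not reported here. With a term for the number series 0 members were called in E.

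**Figure D3:**
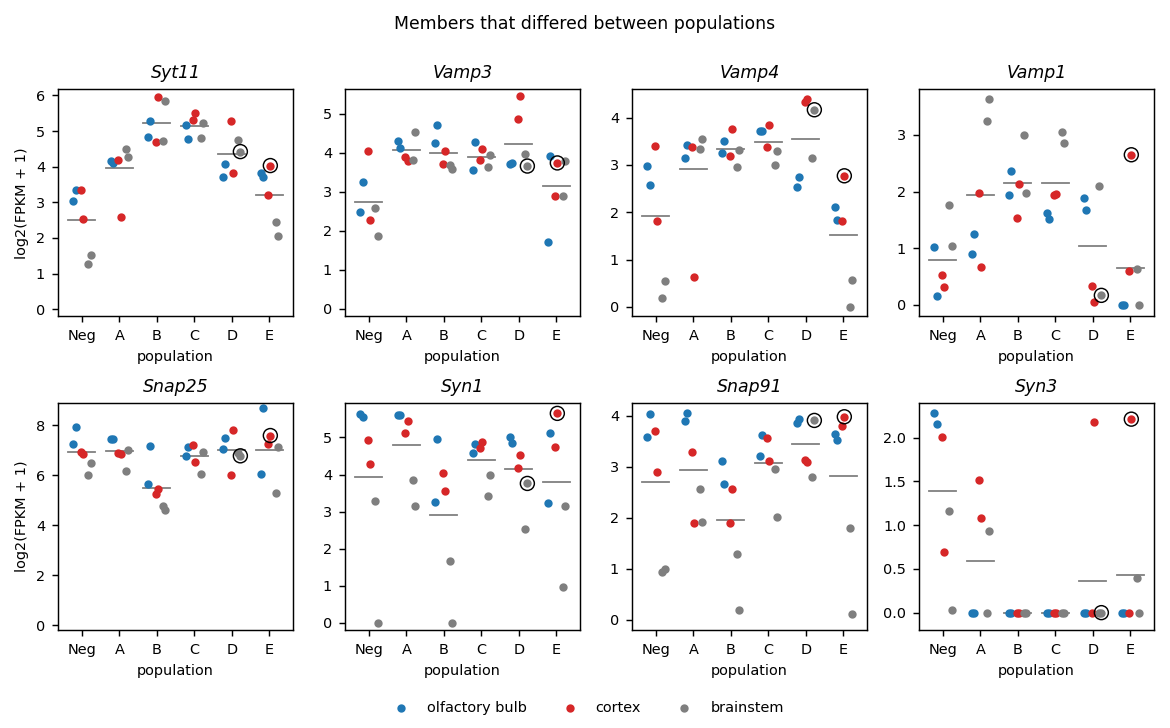
Level of 8 members as log2(FPKM + 1) in each library by population, coloured by region; grey bars are means of the 6 libraries of a population, and circles mark the libraries labelled brainstem D replicate 2 and cortex E replicate 2. Syt11 is lowest in Neg (median 6.00 FPKM) and highest in B and C (32.8 and 35.6), and Snap25 is lowest in B (median 40.1).

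Between regions, members of several roles differed. The 3 comparisons below weight the 6 populations equally and share libraries. From olfactory bulb to cortex, 4 of 37 members were higher and 4 lower, against 0.803% and 4.46% of all genes. From olfactory bulb to brainstem, 3 were higher and 10 lower, against 0.943% and 9.52%. The 3 include Syt2, which passed the filter only through the brainstem, so its call is not read as a result. From cortex to brainstem, 0 members were higher and 8 lower, against 0.376% and 2.08%, and 16 had an unadjusted p under 0.05 in either direction by limma. Neuron marker means had medians of 2.65 in the olfactory bulb, 2.502 in the cortex and 2.09 in the brainstem, and 7 of 19 neuron markers were lower and 3 higher in brainstem than in olfactory bulb. Of 7 oligodendrocyte markers 5 were higher there (median 1.43), with summed levels of 1571 to 13768.5 FPKM against 719 to 2217 in the bulb, and neuroblast markers were lower in 6 of 6 in brainstem and 5 of 6 in cortex. The part of these markers in the members' differences was not tested. With each library centred on its neuron markers, the counts were 5 higher and 2 lower in cortex against bulb. They were 5 and 5 in brainstem against bulb, and 2 and 6 in brainstem against cortex. The share of all genes after centring is not reported here.

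Rims1 and Cplx2 were higher in the cortex than in both other regions, and Bsn higher there than in the brainstem. Rims1 (chromosome 1, 22286251 to 22805994), the RIM scaffold that links vesicles, Rab3 and calcium channels, was at 0.797, 1.95 and 5.44 FPKM in the 12 olfactory bulb libraries. It was at 5.31, 31.0 and 71.9 in the cortex and 0.843, 2.46 and 10.9 in the brainstem. The lowest cortex value came from the library labelled cortex E replicate 2, and the other 11 lay at 14.2 or more, above every library of either other region. The difference was 3.04 ± 0.33 against the bulb (adjusted p = 5.48e-07) and -2.85 ± 0.33 from cortex to brainstem (adjusted p = 2.61e-06). Without the 2 libraries that went against their labels these values were 3.30 ± 0.30 and -2.99 ± 0.31. Its paralog Rims2 differed by 0.62 ± 0.29 between cortex and bulb (adjusted p = 0.24), and Rims3 by 0.11 ± 0.32 (adjusted p = 0.89).

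Cplx2 (chromosome 13, 54371349 to 54383917) was at 2.82, 6.70 and 11.0 FPKM in the bulb, 6.62, 24.5 and 69.9 in the cortex, and 0, 4.32 and 12.4 in the brainstem. All cortex libraries but the one labelled E replicate 2 lay above all bulb libraries. It was higher in cortex than bulb by 1.73 ± 0.33 (adjusted p = 0.00115) and lower in brainstem than cortex by -2.39 ± 0.33 (adjusted p = 3.38e-05). Without the 2 libraries against their labels these were 1.87 ± 0.34 and -2.55 ± 0.36. Its paralog Cplx1 had medians of 26.0, 10.7 and 12 FPKM in bulb, cortex and brainstem. Cplx1 was lower than in the bulb by -1.20 ± 0.36 in the cortex (adjusted p = 0.0433) and by -1.16 ± 0.36 in the brainstem (adjusted p = 0.0347), calls lost in 20 and 13 of the 36 fits that left out 1 library. Without the 2 libraries against their labels these were -1.26 ± 0.38 and -1.20 ± 0.38. The complexins thus had their highest medians in different regions, and the difference between the paralogs was not tested. Bsn, the active zone scaffold bassoon, was at 0.302, 2.45 and 5.98 FPKM in the bulb, 0.544, 5.23 and 14.5 in the cortex, and 0, 1.24 and 2.95 in the brainstem. It was lower in brainstem than cortex by -1.56 ± 0.30 (adjusted p = 0.00246), and 2 cortex libraries, D replicate 2 and E replicate 2, overlapped with the brainstem. Without the 2 libraries against their labels this was -1.61 ± 0.33, and cortex minus bulb was 0.85 ± 0.30 with all libraries (adjusted p = 0.109).

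Rph3a and Unc13c were low in the olfactory bulb and high in both other regions. Rph3a (chromosome 5, 120940499 to 121010092) was at 0.29, 4.67 and 10.1 FPKM in the bulb, 8.83, 35.2 and 59.7 in the cortex, and 0.663, 40.0 and 67.6 in the brainstem. In the brainstem its lowest values were 0.663 and 5.96 in B and 3.74 in the library labelled D replicate 2, which overlapped with the bulb, while the other 9 lay above it. Differences from the bulb were 2.72 ± 0.44 in the cortex (adjusted p = 0.000133) and 2.28 ± 0.44 in the brainstem (adjusted p = 0.000927), or 2.93 ± 0.40 and 2.58 ± 0.40 without the 2 libraries against their labels. Unc13c (chromosome 9, 73479422 to 73968966), the Munc13-3 priming factor, was at 0.374, 1.96 and 4.33 FPKM in the bulb, 3.92, 11.5 and 20.01 in the cortex, and 3.86, 12.2 and 37.1 in the brainstem. It was higher than in the bulb by 1.96 ± 0.30 (adjusted p = 7.69e-05) and 2.12 ± 0.30 (adjusted p = 3.34e-05), or by 2.06 ± 0.29 and 2.29 ± 0.29 without those libraries. Unc13a, the main priming factor of excitatory synapses, went the other way in brainstem against bulb, by -1.37 ± 0.33 (adjusted p = 0.00764), with medians of 1.97 and 0.208 FPKM, and by -1.36 ± 0.34 without those libraries. This call was lost after quantile normalization, after centring on neuron markers, with the single highest transcript and over A to E (adjusted p = 0.064, 0.0915, 0.472 and 0.0654). Unc13b differed by -0.61 ± 0.28 (adjusted p = 0.149).

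Synpr and Syt1 were highest in the olfactory bulb. Synpr (chromosome 14, 13284780 to 13616340), the vesicle protein synaptoporin, was at 1.72, 3.88 and 13.5 FPKM in the bulb. In the cortex it was at 0, 0.475 and 8.30 and in the brainstem at 0, 0.197 and 8.73. Those 2 highest values came from the libraries labelled cortex E replicate 2 and brainstem D replicate 2, and without them the maxima were 1.805 and 1.43. It was lower than in the bulb by -1.83 ± 0.31 in the cortex (adjusted p = 0.000208) and -1.90 ± 0.31 in the brainstem (adjusted p = 0.000112), and without those libraries by -2.03 ± 0.23 and -2.16 ± 0.23.

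Syt1 (chromosome 10, 108497650 to 109010982) was at 5.70, 12.3 and 24.6 FPKM in the bulb, 1.56, 5.09 and 18.2 in the cortex, and 0.0866, 1.49 and 19.9 in the brainstem. Its highest cortex and brainstem values again came from the libraries against their labels, and the others reached 5.88 and 3.59. Differences from the bulb were -1.28 ± 0.30 in the cortex (adjusted p = 0.00887) and -2.39 ± 0.30 in the brainstem (adjusted p = 6.36e-06), the first not called after rescaling or with the single highest transcript (adjusted p = 0.0598 and 0.346). Brainstem minus cortex was -1.11 ± 0.30 (adjusted p = 0.0429), a call lost in 27 of the 36 fits that left out 1 library. Without the libraries against their labels the 3 differences were -1.42 ± 0.26, -2.63 ± 0.26 and -1.21 ± 0.27. Its paralog Syt2, the fast sensor of many hindbrain synapses, was listed at 0 in 10 of 12 bulb and 10 of 12 cortex libraries and reached at most 0.32 FPKM there. In the brainstem it was listed at 0 in 4 of 12 libraries and reached 9.40, and the 4 libraries at 1 FPKM or more were all from this region, so that Syt2 passed the filter only through the region where it was high. It was higher in brainstem than bulb by 0.88 ± 0.27, a call lost in 17 of those 36 fits, and by 1.16 ± 0.22 without the 2 libraries against their labels. Because the filter was passed only through the brainstem, the calls of Syt2 are not read as results. Rab3a, the main Rab of synaptic vesicles, was lower in cortex than bulb by -1.67 ± 0.46 (adjusted p = 0.0273), with medians of 4.23 and 10.3 FPKM, -1.62 ± 0.49 without the libraries against their labels, a call lost without any of 8 libraries (in the bulb Neg replicate 2 and replicate 1 of A, C, D and E, in the cortex replicate 2 of Neg, A and B).

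Several core release genes were lower in the brainstem than in both other regions. Syn1 (chromosome X, 20860511 to 20921004) was at 8.31, 30.8 and 48.2 FPKM in the bulb, 10.8, 25.5 and 49.2 in the cortex, and 0, 7.94 and 14.7 in the brainstem. It was lower there by -2.37 ± 0.36 against the bulb (adjusted p = 7.44e-05) and -2.19 ± 0.36 against the cortex (adjusted p = 0.000311), and 9 of 12 brainstem libraries lay below every cortex library. Vamp2 (chromosome 11, 69088490 to 69092384) was at 23.8, 77.5 and 121 FPKM in the bulb, 19.7, 58.1 and 92.9 in the cortex, and 2.16, 30.7 and 64.3 in the brainstem. The groups overlapped, and the differences were -1.91 ± 0.31 (adjusted p = 0.000139) and -1.44 ± 0.31 (adjusted p = 0.00705). Snap91 fell from medians of 11.4 and 7.70 FPKM in bulb and cortex to 2.65 in brainstem, by -1.80 ± 0.28 and -1.28 ± 0.28 (adjusted p = 7.42e-05 and 0.00664). Neither of these calls of Snap91 held for its single highest transcript (adjusted p = 0.28 and 0.948). Without the libraries against their labels the differences from bulb and from cortex were -2.47 ± 0.38 and -2.22 ± 0.39 for Syn1, -1.98 ± 0.33 and -1.50 ± 0.34 for Vamp2, and -1.89 ± 0.28 and -1.36 ± 0.29 for Snap91. Rab3c was lower in brainstem by -1.12 ± 0.25 and -1.06 ± 0.25 (adjusted p = 0.0043 and 0.0165), the second lost without cortex C replicate 1, and Rab3b was lower than in the bulb by -0.98 ± 0.25 (adjusted p = 0.0115). These Rab3c and Rab3b calls were all lost after quantile normalization and after centring on neuron markers. With regions compared over A to E, Rab3b was not called, nor were Rab3c, Vamp2 and Snap91 against the cortex. Without the 2 libraries against their labels Rab3c differed by -1.23 ± 0.25 and -1.23 ± 0.26, and Rab3b by -1.13 ± 0.21.

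Vamp1, a synaptobrevin known from hindbrain and spinal cord, had its highest regional median in the brainstem, 3.10 FPKM against 1.63 in the bulb and 1.24 in the cortex. Brainstem minus cortex was 0.73 ± 0.28 (adjusted p = 0.207) with all libraries and 1.06 ± 0.25 (adjusted p = 0.0125) without the 2 against their labels. Without those 2 libraries, Vamp1 was called higher in brainstem than cortex. Syt2 was called too, but it passed the filter only through the brainstem, and this is not read as a result. Syt5 and Rims3 were among the members called lower. Cortex E replicate 1, then alone in its group, held the highest values of Syt5 and Rims3 in any library, 9.51 and 14.2 FPKM. How far these calls rest on it was not tested. The lower members of cortex against bulb then numbered 7, with Syp, Sv2a and Rab3b added.

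**Figure D4:**
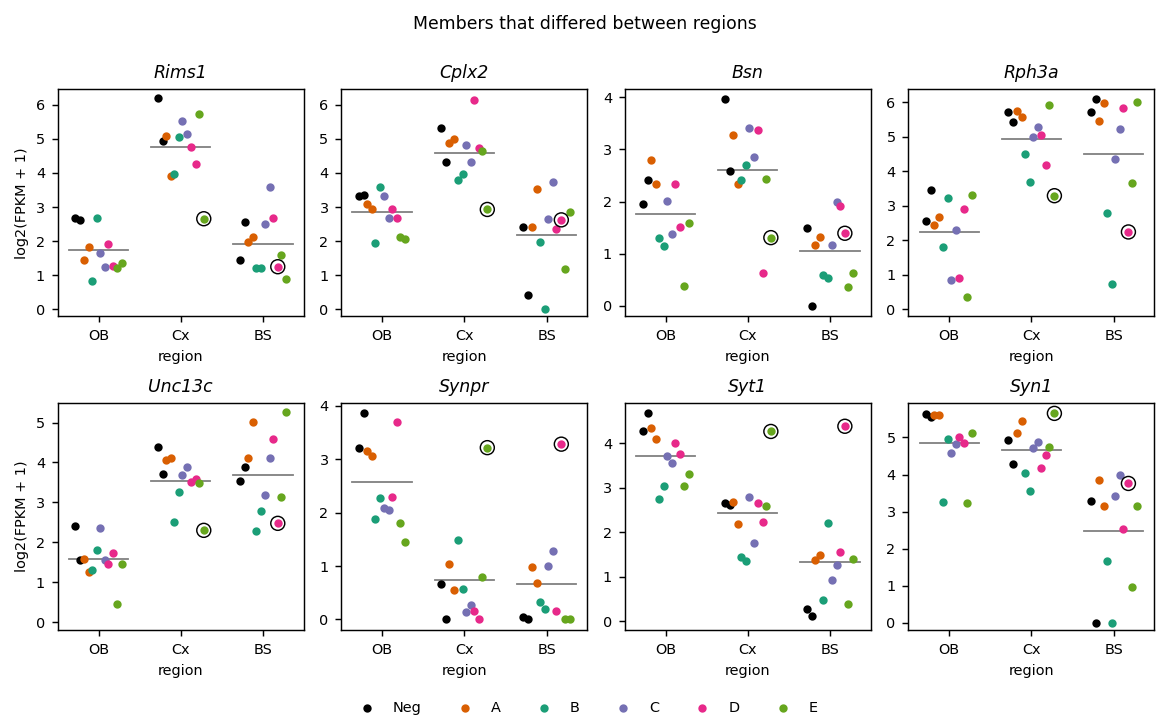
Level of 8 members as log2(FPKM + 1) in each library by region (OB, olfactory bulb; Cx, cortex; BS, brainstem), coloured by population; grey bars are means of the 12 libraries of a region, and circles mark the libraries labelled cortex E replicate 2 and brainstem D replicate 2. Rims1 and Cplx2 are highest in Cx (medians 31.0 and 24.5 FPKM), Rph3a and Unc13c are lowest in OB (4.67 and 1.96), and the circled Synpr and Syt1 points lie at OB levels.

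Snap25 (chromosome 2, 136713453 to 136782428) was called lower in brainstem than bulb by -0.99 ± 0.32 (adjusted p = 0.0451), and the call was lost in 26 of the 36 fits that left out 1 library and without the 2 libraries against their labels (adjusted p = 0.0565). For its single highest transcript the difference was 0.56 instead. The files list Snap25 as 2 transcripts of equal span and equal length, 2119 bases, and they were looked at after their values were seen, so what follows is a description without a test. GENCODE vM21 annotates transcripts Snap25-201 and Snap25-202, which use different versions of exon 5, known as developmental alternatives in the coding sequence. They are shown so that the annotated difference can be seen. They lie at chr2:136770057-136770174 and chr2:136769743-136769860 (mm10, plus strand) and are 118 bases each, with 73.7% identity and 31 differing bases in capitals, 5′ to 3′.
Snap25-201 exon 5: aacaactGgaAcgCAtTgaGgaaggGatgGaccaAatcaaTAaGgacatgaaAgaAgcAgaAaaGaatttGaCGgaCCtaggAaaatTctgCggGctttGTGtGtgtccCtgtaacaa
Snap25-202 exon 5: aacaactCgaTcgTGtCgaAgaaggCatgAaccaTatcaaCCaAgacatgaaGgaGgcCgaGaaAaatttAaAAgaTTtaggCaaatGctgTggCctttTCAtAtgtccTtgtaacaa
The files do not say which exon either deposited transcript uses, so they are called the first and the second.

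The second transcript made up 16.0%, 68.8% and 84.8% of Snap25 FPKM (lowest, median and highest) in the 12 olfactory bulb libraries. In the cortex the share was 0%, 12.1% and 48.5%, and in the brainstem 0%, 0% and 59.4%. It was listed at 0 in 5 cortex and 10 brainstem libraries, and the deposited upper bounds there ran from 0.0385 to 1.28 FPKM. The highest cortex and brainstem shares came from the libraries against their labels, 48.5% in cortex E replicate 2 and 59.4% in brainstem D replicate 2. Without these, the brainstem share reached at most 10.5%, while cortex E replicate 1 had 46.0%. The first transcript had medians of 53.4, 96.6 and 67.8 FPKM in bulb, cortex and brainstem, and the second 111, 9.24 and 0. The regions therefore differed in the deposited split of the 2 transcripts, with the shallow olfactory bulb E replicate 1, at 16.0%, the lowest of its region. Neuroblast markers moved with this split: 5 of 6 were lower in cortex and 6 of 6 lower in brainstem than in the bulb. Their part in it was not tested.

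**Figure D5:**
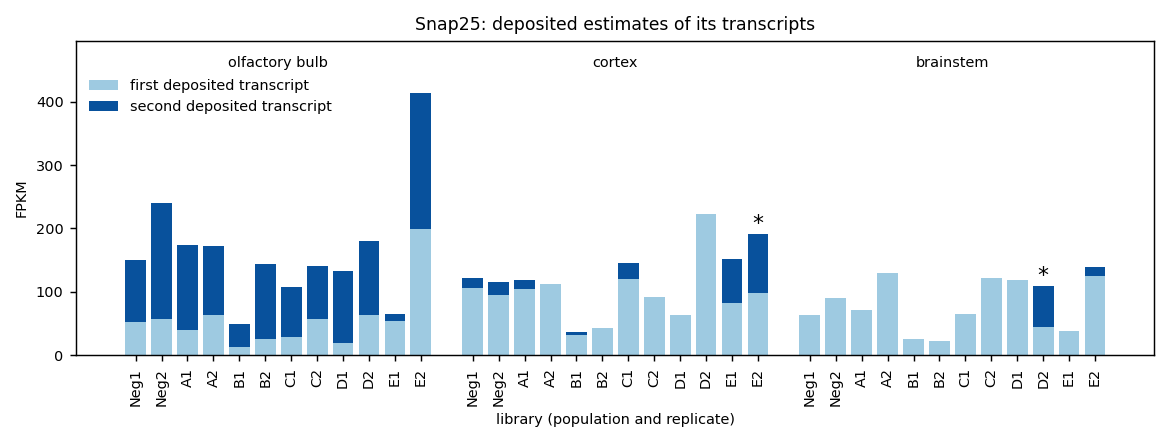
FPKM of the 2 deposited Snap25 transcripts, stacked, in each library by region, population and replicate; stars mark the libraries labelled cortex E replicate 2 and brainstem D replicate 2. The second transcript fills most of the olfactory bulb bars (median share 68.8%) and is listed at 0 in 10 of 12 brainstem bars.

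Whether population differences depended on region was asked with an F test. Of 37 members 0 were called by limma, with 8 at an unadjusted p under 0.05, and 0.0147% of all genes were called. Rab3a was called without the 2 shallowest libraries, where brainstem E replicate 2, at 75.2 FPKM, was left alone in its group. The dropped brainstem E replicate 1 was listed at 0, so this call is not read as a result. Of the 37 tested members, 7 were called in no comparison, namely Syn2, Sv2a, Stx1a, Rims2, Rims3, Rims4 and Pclo. Pclo, the scaffold piccolo, was at 1.29, 5.26 and 13.8 FPKM over all libraries, and Stx1a, the plasma membrane syntaxin, at 0, 0.38 and 3.85.

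Of 37 further genes of the release pathway, such as transporters that fill vesicles and factors that recycle SNAREs, 36 were found and tested. The neuron slope was above 0 in 19 of these and below 0 in 0, against 8.63% and 0.398% of all genes. Among them was Dnm1, the neuronal dynamin, at 1.56 ± 0.24 (adjusted p = 7.13e-05). The astrocyte slope was above 0 in 10, led by Vamp8, an endosomal SNARE, at 0.95 ± 0.14, Scamp5, a secretory carrier protein, at 0.57 ± 0.12, and Snap23, the widely expressed relative of Snap25, at 0.49 ± 0.10 (adjusted p = 4.01e-07, 9.59e-05 and 0.000131). It was below 0 in 3, and the 10 of 36 above 0 make a smaller share than the 55% of all genes. In A to E against Neg 4 were higher, a smaller share than the 20.2% of all genes, and 0 lower. In brainstem against bulb 0 were higher and 11 lower (0.943% and 9.52% of all genes), among them Napb, an adaptor for SNARE recycling, by -1.73 ± 0.32 (adjusted p = 0.000691). In brainstem against cortex 4 were lower (2.08% of all genes), among them Slc17a7, a vesicular glutamate transporter, by -2.43 ± 0.35 (adjusted p = 4.37e-05), and in cortex against bulb 2 were lower (4.46% of all genes), Slc32a1, the vesicular transporter for GABA and glycine, by -1.51 ± 0.28 (adjusted p = 0.000825), and Napb.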

How the data were processed

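Total RNA of 36 libraries was extracted, made into cDNA with random and oligo dT primers and sequenced on an Illumina instrument, per the labels' protocols. The submitters' processing notes name bcl2fastq 1.8.3, TopHat, Cufflinks and mm10; the sources used here give no other version. The deposited values are FPKM per transcript with an interval, plus coverage, per the file headers. Cufflinks estimates are not counts, and FPKM is relative to each library's mapped fragments.

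Here, 52543 of 63241 transcripts (83.1%) were assigned by position to GENCODE vM21 genes (overlap score of 0.5 or more, leading by 0.1), holding 89.5% to 96.7% of nuclear FPKM, and FPKM was summed per gene. limma 3.58.1 in R 4.3.3 was fitted to log2(FPKM + 1) of genes with at least 1 FPKM in 2 libraries, with 18 group means, 18 residual degrees of freedom, a variance trend and Benjamini-Hochberg adjustment over all genes; calls are at adjusted p under 0.05, two-sided. Differences on this scale understate changes of low genes. Slopes used 1 fit on both marker means over the 36 libraries, without group means or terms for region and population. The script was tested on simulated data. Libraries carry no replicate numbers and were numbered in deposited order.

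Named genes are the called members, at most 6 per comparison and direction with full values, their paralogs, and for other genes those among the 3 largest differences, some of which are not reported here; the Snap25 transcripts were added after their values were seen. The members and lists were chosen with earlier results of these data known. Alternatives covered scaling, centring, pseudocount, filter, transcript choice, weights, number series, the libraries against their labels, the shallowest libraries and leaving out each library; adding unassigned transcripts inside a gene was chosen after seeing the data.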

Additional observations from a re-analysis of the deposited data

How the results depend on the processing

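Counts of called members that moved by more than 1.5 times are given by setting, against the values in the report. Shares of all genes by setting are not reported here, so these counts show dependence on processing and are not results about the members. A to E against Neg gave 0 higher and 6 lower after rescaling, 1 and 12 after quantile normalization, 2 higher with the single highest transcript, and 2 lower with array weights or with transcripts inside the gene added. Set against Neg, A gave 0 higher after rescaling, quantile normalization, centring and with the single transcript, and 5 higher and 1 lower with weights. B gave 1 higher and 11 lower after rescaling, 1 and 17 after quantile normalization and 3 higher with the single transcript. C gave 0 and 6 after rescaling, 1 and 12 after quantile normalization, and 2 and 10 higher after centring and with weights. D gave 0 higher after rescaling, 0 and 3 lower after quantile normalization, and 1 higher with the single transcript, the series term or without the libraries against their labels. E gave 0 in each of these settings. Trying these settings on the counts against Neg was chosen after seeing the data. Set against the other 4, A gave 2 lower after centring on neuron markers. B gave 0 higher after rescaling, quantile normalization, the single transcript or the series term and 5 after centring; it gave 12 lower after quantile normalization, 3 after centring, 1 with the single transcript or the series term and 2 with weights. C gave 1 higher without the filter or with the single transcript and 2 with weights. E gave 2, 4 and 3 higher after rescaling, quantile normalization and centring, 1 without the libraries against their labels and 2 without the shallowest pair; it gave 4, 0, 1, 0 and 3 lower after rescaling, quantile normalization, centring, the series term and leaving out the shallowest pair. Cortex against bulb gave 2 lower after centring, without the filter, with the single transcript and over A to E, and 7 without the libraries against their labels. Brainstem against bulb gave 5 higher after centring, and 5, 5, 6 and 6 lower after quantile normalization, centring, the single transcript and over A to E. Brainstem against cortex gave 1 higher after quantile normalization, with pseudocount 0.1 or the single transcript, 2 after centring and without the libraries against their labels, and 4 lower over A to E. The F test moved without the shallowest pair, by Rab3a, where brainstem E replicate 2 was left alone in its group. Neuron slopes above 0 numbered 10 and 7 after quantile normalization and with the single transcript. Astrocyte slopes gave 2 above and 6 below after rescaling and 0 and 7 after quantile normalization. At a level of 5 FPKM the median library held 15 members.

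Signs turned for Vamp2 in E (0.0623 rescaled, 0.0376 quantile), Vamp3 in E (0.18 rescaled), Snap25 in brainstem against bulb (0.56, single transcript), Vamp3's astrocyte slope (-0.19 rescaled, -0.0647 quantile) and Vamp1's (-0.0028 quantile), and against Neg for Vamp3 in B (-0.224 rescaled, -0.173 quantile) and C (-0.428 rescaled, -0.29 quantile), Vamp1 in B (-0.221, single transcript) and Unc13b in B (-0.191 quantile). The cause was not tested.

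Leaving out 1 library in turn gave these ranges of higher and lower calls: A to E against Neg 1 to 5 and 1 to 2, against Neg A 0 to 3 and 0, B 3 to 6 and 2 to 4, C 3 to 7 and 1, D 0 to 5 and 0 to 1 and E 0, and against the other 4 B 0 to 2 and 1 to 6, C 0 to 2 and 0, E 0 to 2 and 5 to 9, cortex against bulb 4 to 5 and 2 to 7, brainstem against bulb 2 to 4 and 8 to 12, brainstem against cortex 0 to 1 and 6 to 9, neuron slope 14 to 18 and 0, astrocyte slope 4 and 2 to 5, and 0 for A, D and the F test. Low values came without any Neg library but cortex replicate 1 for A to E, and without olfactory bulb B replicate 1 for B (1 lower). The 7 lower of cortex against bulb came without the library labelled cortex E replicate 2. Counts rose from 0 without cortex A replicate 1 or cortex D replicate 1 in C, without cortex or brainstem E replicate 1 in E, and without brainstem A, B or C replicate 1 or D replicate 2 in brainstem against cortex. Against Neg, any Neg library but cortex replicate 1 moved A or D. The 5 higher of D came without cortex D replicate 2. The count below 0 of the astrocyte slope was 5 without brainstem Neg replicate 2. No paired analysis was possible because the labels carry no replicate numbers. The 2 shallowest libraries limit what can be read in E.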
